A study of Mus musculus with 6 samples.

Results

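Cytoplasmic dynein and its partner complex dynactin were followed in retinal ganglion cells (RGCs), the neurons whose axons form the optic nerve, from E18 (embryonic day 18) and P5 (postnatal day 5) C57BL/6 mice. The 10 genes described are the heavy chain Dync1h1, the intermediate chains Dync1i1 and Dync1i2, the light intermediate chains Dync1li1 and Dync1li2, the light chains Dynll1 and Dynll2, and the dynactin subunits Dctn1, Dctn2 and Dctn4, out of 24060 genes in the table. They were selected by symbol, and they were chosen with their E18 and P5 read counts already known, so their differences between the ages are given as a description, without a p-value. The cells were purified by immunopanning, in which macrophages are first removed and RGCs are then held on a dish by an antibody against CD90 (Thy1), and neither age received a treatment. The comparison asks how RNA levels differ between RGCs at an age of rapid axon growth and RGCs that have lost this ability. RNA was sequenced from 3 samples at E18, numbered 1, 3 and 4, and 3 at P5, numbered 6, 8 and 9. The labels do not say how many animals a sample holds or whether samples come from separate litters, so the spread measured is that between these samples and may be technical.

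Dynein is the motor that walks toward the minus end of microtubules, and in axons it carries signalling endosomes, autophagosomes and other cargo back to the cell body. A pair of heavy chains pulls, intermediate chains build the tail of the motor and bind dynactin, light intermediate chains bind cargo adaptors, and small light chains dimerise on the intermediate chains. Dynactin holds the motor to its cargo and adaptor and makes long runs possible, and Dync1i1 is known as the intermediate chain enriched in neurons, whereas Dync1i2 is found in most cells.

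Depth was similar across the series, with 81213639 to 114512853 reads counted on genes per sample. Levels are given as CPM, the reads of a gene relative to the size of its library after TMM scaling, and, where genes are compared with each other, as RPKM, the CPM divided by the exon length of the gene in kilobases. Differences are log2 fold changes of E18 over P5 from one edgeR fit across all 16449 genes with enough counts, so that a negative value is higher at P5. Every one of the 10 genes had enough counts. Of 15 RGC marker genes, which summed to 9900 to 11605 CPM at E18 and 10084 to 11113 CPM at P5, 5 were higher at E18 and 5 were lower. Lists of other cell types moved with age as well. Summed over 14 genes, dividing-cell markers had 335, 135 and 85.9 CPM in E18 replicates 1, 3 and 4 and 61.8 to 78.9 CPM at P5, and 10 of the 14 were higher at E18. The 11 retinal progenitor markers summed to 166, 104 and 29.0 CPM at E18 and to 20.9 to 28.2 CPM at P5, with 5 higher at E18. The 11 amacrine markers summed to 638 to 959 CPM at E18 and 528 to 653 CPM at P5, with 5 of 9 tested higher at E18. Sums over Müller glia and astrocyte markers were 434 to 472 CPM at E18 and 348 to 368 CPM at P5, and those of 8 bipolar markers were 53.8 to 62.3 and at least 83.7 CPM. Oligodendrocyte markers summed to 90.7 to 91.4 CPM at E18 and 54.0 to 73.6 CPM at P5. Endothelial and pericyte markers summed to 71.8, 64.0 and 15.5 CPM in E18 replicates 1, 3 and 4 and to at most 15.6 CPM at P5. Photoreceptor markers summed to at most 12.9 CPM and microglial markers to at most 2.92 CPM in any sample, and no marker gene was at 0 in every sample. The glial, bipolar, oligodendrocyte, vascular and photoreceptor lists had 9, 6, 6, 7 and 10 tested genes. Of these, 3, 1, 1, 1 and 3 were higher at E18 and 1, 4, 2, 2 and 1 were lower by edgeR's test. The part of these cells in the results below was not tested, and in bulk samples fewer cells of a type and less RNA per cell cannot be told apart.

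The 10 genes moved in different directions. The heavy chain Dync1h1, the intermediate chain Dync1i2 and the light intermediate chain Dync1li1 had E18 values that all lay above those of P5, and Dync1i1 and Dctn4 had E18 values that all lay below. The other 5 genes had overlapping ages. So the ages did not overlap in 5 of the 10, against 56.1% of all genes tested. By edgeR's quasi-likelihood test at an adjusted p of 0.05, 3 of the 10 were past the threshold as higher at E18 and 2 as lower, against 20.8% and 22.5% of all genes (43.4% in either direction). Because this contrast was in view when the genes were chosen, nothing is read from these counts. The counts also varied with the samples fitted. Without E18 replicate 3 the fit counted 0 of the 10 as higher (2 at an unadjusted p under 0.05, and 3 by DESeq2 with all samples), and without E18 replicate 4 or P5 replicate 9 it counted 1. The count of lower genes was 1 without any one of the E18 replicates. Over all genes the number higher was 3426 with all samples. It was 2137, 2756 and 2474 without E18 replicate 3, E18 replicate 4 and P5 replicate 9. Without E18 replicate 3 the log2 fold changes of Dync1h1, Dync1i2 and Dync1li1 were 0.33, 0.32 and 0.24. The median log2 fold change of the 10 genes was -0.02, and that of all tested genes was 0.0047. Their median size, regardless of sign, was 0.23, against 0.39 for all tested genes.

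**Figure D1:**
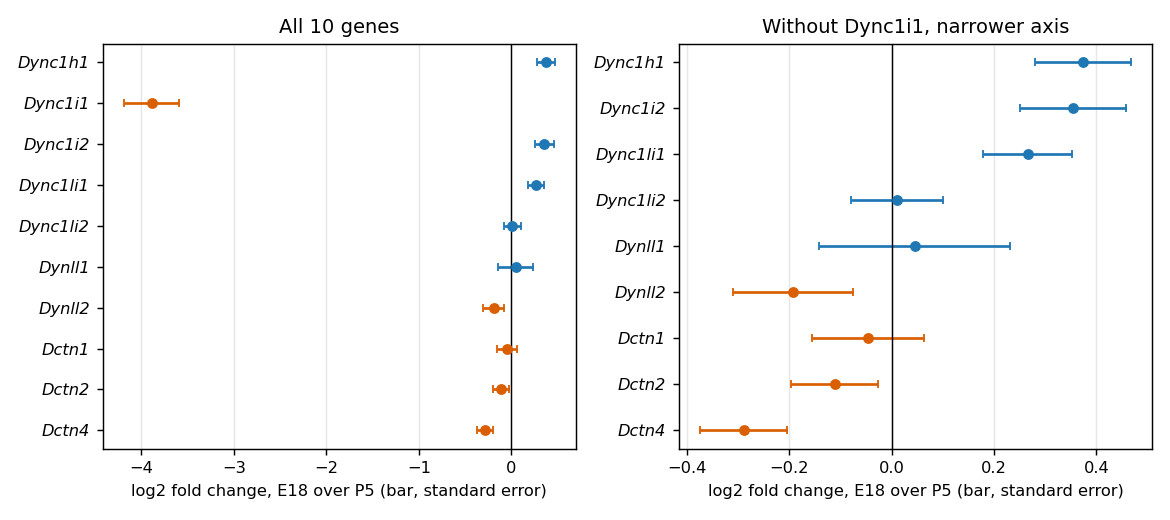
Log2 fold change of E18 over P5 for each gene, with its standard error as a bar; blue is higher at E18 and orange higher at P5, and the right panel leaves out Dync1i1. Dync1i1 stands at -3.89, while the other 9 genes lie between -0.29 and 0.37.

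Dync1i1 changed by far the most. It had 3.98, 3.62 and 3.95 CPM in E18 replicates 1, 3 and 4, from 330, 406 and 358 reads. At P5 it had 52.9, 34.9 and 83.5 CPM in replicates 6, 8 and 9, from 4691, 3434 and 7854 reads. The E18 samples were close to each other, whereas the P5 samples spread over a wide range, with replicate 9 highest and replicate 8 lowest, and even the lowest stood far above every E18 sample. The means were 3.85 ± 0.200 and 57.1 ± 24.6 CPM (SD, n = 3 each). The log2 fold change was -3.89 with a standard error of 0.298, or 14.8-fold higher at P5. It was -3.51 without P5 replicate 9 and -4.17 without P5 replicate 8. The gene (ENSMUSG00000029757.16) lies on chromosome 6 of mm10, 5725639 to 6028039, on the plus strand.

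Its paralogue Dync1i2 (ENSMUSG00000027012.15, chromosome 2, 71211706 to 71263303, plus strand) moved the other way and far less. It had 492, 553 and 529 CPM in the E18 samples and 460, 407 and 365 CPM in P5 replicates 6, 8 and 9. All E18 samples lay above all P5 samples, and P5 replicate 9, in which Dync1i1 was highest, had the lowest Dync1i2. The log2 fold change was 0.35 with a standard error of 0.103, so the level at E18 was 1.28-fold that at P5.

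As length-scaled levels, Dync1i1 made up 0.811%, 0.659% and 0.751% of the intermediate chain RNA in E18 replicates 1, 3 and 4. In P5 replicates 6, 8 and 9 it made up 10.4%, 7.99% and 18.8%. Dync1i2 was therefore the main intermediate chain RNA in every sample, and the share of the neuron-enriched form went from 0.740% ± 0.0768 to 12.4% ± 5.66 (SD, n = 3 each). The summed RPKM of both chains was 175 to 196 at E18 and 156 to 181 at P5, ranges that overlap. The coding sequences of both genes (1935 and 1914 bases in their longest coding transcripts) were 70.3% identical on alignment, and their longest identical run of 17 bases was far shorter than the 100-base reads.

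**Figure D2:**
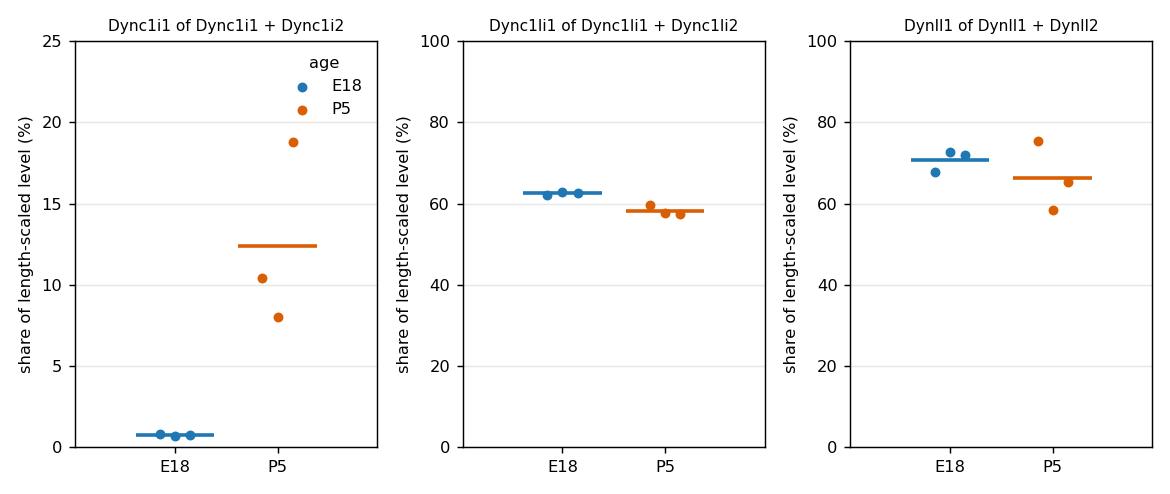
Share of the first gene in the summed length-scaled level (RPKM) of each paralogue pair, in percent, for each sample (points) with the mean of 3 as a line; the left axis ends at 25% and the others at 100%. The Dync1i1 share lies under 1% in every E18 sample and between 7.99% and 18.8% at P5. That of Dync1li1 is 62.2% to 62.8% at E18 and 57.5% to 59.7% at P5, and that of Dynll1 overlaps between the ages.

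The bases before the start sites of this pair are shown because the paralogues moved in opposite directions. Each is 200 bases of RefSeq sequence on GRCm38.p6 (mm10), plus strand, read 5′ to 3′, with CG dinucleotides in capitals. Dync1i1 is chr6:5725389-5725588 and Dync1i2 is chr2:71211456-71211655, and both end upstream of the annotated gene.
Dync1i1: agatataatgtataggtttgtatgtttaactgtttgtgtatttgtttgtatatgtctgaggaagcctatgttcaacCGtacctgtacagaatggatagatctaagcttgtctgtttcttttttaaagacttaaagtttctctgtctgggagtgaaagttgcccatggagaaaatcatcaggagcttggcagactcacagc
Dync1i2: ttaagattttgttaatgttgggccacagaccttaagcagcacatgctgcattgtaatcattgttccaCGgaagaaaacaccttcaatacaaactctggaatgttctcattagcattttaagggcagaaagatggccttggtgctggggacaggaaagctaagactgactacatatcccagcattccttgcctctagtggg

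Each stretch holds 1 CG. Over the whole window of 300 bases (250 before the start and 50 after), the Dync1i1 promoter had 46.7% G and C and 6 CG, and 28.4% of all 32851 mouse promoters in the table had no higher G and C content. Dync1i2 has a second annotated start, whose window (chr2:71211696-71211995) had 61.0% G and C and 25 CG. Its first window, which holds the bases shown, had 6 CG like that of Dync1i1, and 40.5% of all promoters had no higher G and C content. The heavy chain promoter had 62.3% and 30 CG, that of Dync1li1 68.0% and 31 CG, and that of Dynll1 71.0% and 34 CG. The dynactin genes had fewer CG, with 45.7% and 11 CG for Dctn2, and 56.0% with 3 CG and 52.7% with 7 CG in the windows of Dctn1. The median over all promoters was 52.7% and 7 CG. Promoters were found for 7 of the 10 genes, and Dync1li2, Dynll2 and Dctn4 had no entry. Both strands were searched, and no window held both motifs. CCGGAAGT, a form of the Elk-1 site, was in no window of these 7 genes, and it is in 3.89% of all promoters. TCAGCACC, a part of the REST site, was in 1 of the 2 windows of Dctn1 and in none of the others, and it is in 1.65% of all promoters. Dync1i1 thus had neither motif in this window.

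By a rule of nearness, 5 genes followed Dync1i1 most closely over the 6 samples among the 9724 other genes that averaged 10 CPM or more. They were Sparcl1, a secreted matricellular protein, Hspb1, a small heat shock protein, Elfn1, a synaptic adhesion protein, Lynx1, a modulator of nicotinic receptors, and Sorcs3, a sorting receptor. The distance between profiles of mean-centred log2 CPM was 0.340, 0.403, 0.491, 0.655 and 0.732 in that order, and Pearson's r was 0.995 to 0.998 over 6 samples that fall into 2 ages, which sets most of it. Each of the 5 had its highest P5 value in replicate 9 and its lowest in replicate 8, an order that the choice by nearness over these samples favours. Sparcl1, the nearest, had 21.2 to 29.6 CPM at E18 and 305, 224 and 447 CPM in P5 replicates 6, 8 and 9. Hspb1, Elfn1, Lynx1 and Sorcs3 averaged under 10 CPM at E18. They passed the floor of 10 CPM, which is on the mean over both ages, only through their P5 values. A gene that low at E18 could enter only if it was high at P5, so the floor itself favours this pattern. The summed bipolar markers had the same order at P5, lowest in replicate 8 (83.7 CPM) and highest in replicate 9. The summed RGC markers had it too, with 10702, 10084 and 11113 CPM in P5 replicates 6, 8 and 9. Sums of amacrine, Müller glia and astrocyte, and endothelial and pericyte markers ran the other way, highest in replicate 8 and lowest in replicate 9. So did those of oligodendrocyte, dividing-cell and retinal progenitor markers, and the photoreceptor and microglial sums had neither order. The part of any of these cells in the spread of Dync1i1 was not tested.

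**Figure D3:**
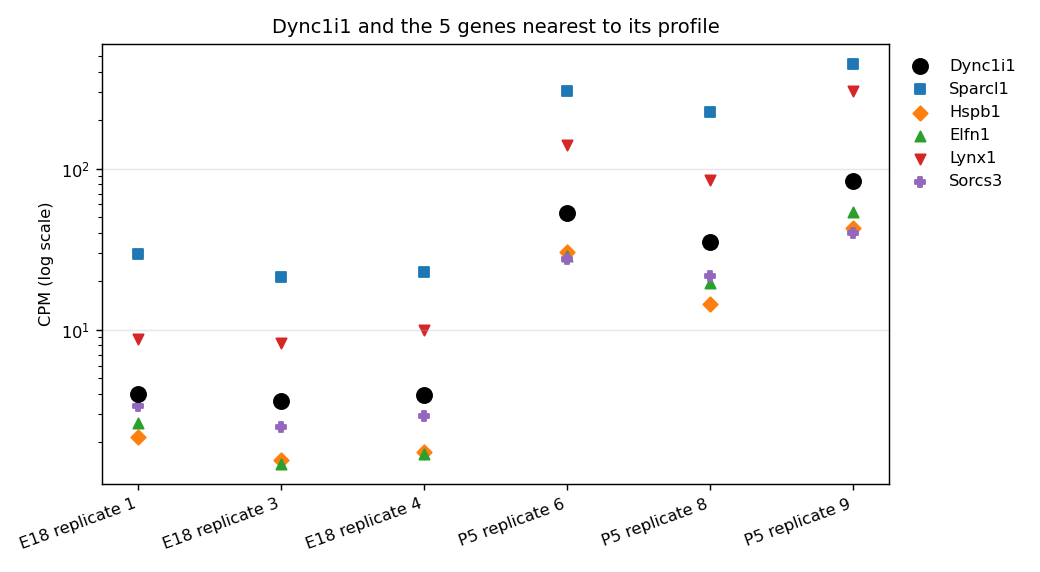
CPM on a log axis for Dync1i1 (black) and its 5 nearest genes in each sample. All 6 genes are low in the E18 samples, and at P5 each is lowest in replicate 8 and highest in replicate 9.

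The heavy chain Dync1h1, the ATPase that moves along the microtubule (ENSMUSG00000018707.13, chromosome 12, 110601452 to 110666945, plus strand), had the most reads of the 10 genes. It had 1755, 1948 and 1760 CPM in E18 replicates 1, 3 and 4 and 1266, 1432 and 1519 CPM in P5 replicates 6, 8 and 9. All E18 samples lay above all P5 samples, with replicate 3 highest and P5 replicate 6 lowest. The log2 fold change was 0.37 with a standard error of 0.0940, and it stayed between 0.29 and 0.43 over the 11 alternatives run. Of its exon bases, 403 and 48 are shared with 2 genes on the opposite strand, whose reads cannot be told apart from its own if the counting ignored strand.

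The light intermediate chains, which tie the motor to its adaptors, differed from each other. Dync1li1 (chromosome 9, 114688790 to 114724302, plus strand) had 236, 260 and 254 CPM at E18 and 205, 221 and 197 CPM at P5. Its ages did not overlap, with a log2 fold change of 0.27 and a standard error of 0.0869. Dync1li2 (chromosome 8, 104417680 to 104443047, minus strand) had 255, 274 and 271 CPM at E18 and 246, 288 and 259 CPM at P5. These overlapped, with a log2 fold change of 0.01 and a standard error of 0.0901, and the sign changed in 3 of the 11 alternatives. Of the exon bases of Dync1li2, 427 are shared with an antisense gene. The share of Dync1li1 in the pair was 62.2% to 62.8% at E18 and 57.5% to 59.7% at P5, per exon length. Per coding length it was a mean of 46.8% at E18 and 42.5% at P5, so which of the pair is the larger depends on the length used. The direction between the ages cannot depend on it, because a length scales every sample alike.

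The light chains Dynll1 and Dynll2 are near-identical small proteins that dimerise and bind many partners besides dynein. Their coding sequences are shown because so alike a pair could share reads. They are read from GENCODE M21 transcripts, 5′ to 3′ from the start codon and without the stop codon, and capitals mark the bases at which the 2 genes differ.
Dynll1: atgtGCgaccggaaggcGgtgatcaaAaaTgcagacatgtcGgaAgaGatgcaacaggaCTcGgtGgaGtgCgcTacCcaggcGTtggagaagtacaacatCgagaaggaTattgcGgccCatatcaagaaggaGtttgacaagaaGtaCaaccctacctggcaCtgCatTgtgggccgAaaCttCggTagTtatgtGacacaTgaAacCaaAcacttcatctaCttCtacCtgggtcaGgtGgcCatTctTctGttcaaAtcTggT
Dynll2: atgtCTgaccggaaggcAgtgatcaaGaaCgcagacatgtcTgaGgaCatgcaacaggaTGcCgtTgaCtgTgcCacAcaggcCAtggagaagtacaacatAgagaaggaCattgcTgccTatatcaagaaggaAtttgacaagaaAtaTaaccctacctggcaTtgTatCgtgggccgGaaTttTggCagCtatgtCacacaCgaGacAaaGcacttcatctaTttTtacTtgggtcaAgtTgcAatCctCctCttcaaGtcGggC

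The sequences differ at 50 of 267 bases (81.3% identical), and their longest identical run is 16 bases, so a read of 100 bases within the coding part holds bases that tell them apart. Dynll1 (ENSMUSG00000009013.5, chromosome 5, 115297110 to 115300999, minus strand) had 175, 182 and 194 CPM at E18 and 230, 126 and 177 CPM in P5 replicates 6, 8 and 9. The P5 samples enclosed the whole E18 range, with a log2 fold change of 0.05 and a standard error of 0.186, the widest of the 10 genes after that of Dync1i1. Dynll2 (ENSMUSG00000020483.14, chromosome 11, 87979525 to 87987533, minus strand) had 103, 84.6 and 93.1 CPM at E18 and 92.6, 111 and 117 CPM at P5. These ranges overlapped too (log2 fold change -0.19, standard error 0.117). Dynll1 made up 67.7% to 72.7% of the pair at E18 and 58.4% to 75.5% at P5. In the P5 samples the pair moved apart, with Dynll1 highest and Dynll2 lowest in replicate 6.

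Among the dynactin subunits, Dctn1 is the large arm that grips microtubules and the intermediate chains, and Dctn2, dynamitin, forms the shoulder of the complex. Dctn1 (chromosome 6, 83165920 to 83200117, plus strand) had 239, 248 and 278 CPM at E18 and 232, 263 and 295 CPM at P5. Its ages overlapped, with a log2 fold change of -0.05 and a standard error of 0.110, and the sign changed in 2 of the 11 alternatives. Dctn2 (chromosome 10, 127266368 to 127281950, plus strand) had 245, 257 and 262 CPM at E18 and 280, 255 and 289 CPM at P5. P5 replicate 8 lay within the E18 range, and the log2 fold change was -0.11 with a standard error of 0.0853.

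Dctn4 sits at the pointed end of the actin-like filament of dynactin (ENSMUSG00000024603.8, chromosome 18, 60526185 to 60558766, plus strand). It had 174, 190 and 187 CPM in E18 replicates 1, 3 and 4 and 212, 235 and 226 CPM in P5 replicates 6, 8 and 9. Every E18 sample lay below every P5 sample. The log2 fold change was -0.29 with a standard error of 0.0852, or 1.22-fold higher at P5, and it ranged from -0.34 to -0.25 over the alternatives.

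Levels can be set side by side per length. At E18 the order by mean RPKM was Dync1i2 (185 ± 10.7), Dctn2 (143 ± 4.98), Dync1h1 (127 ± 7.67), Dync1li1 (96.0 ± 4.85), Dynll1 (83.1 ± 4.50), Dync1li2 (57.6 ± 2.16), Dctn1 (51.1 ± 4.13), Dctn4 (35.6 ± 1.65), Dynll2 (34.2 ± 3.40) and Dync1i1 (1.37 ± 0.0712; SD, n = 3 each). The ranges of neighbours in this order overlapped for Dync1li2 with Dctn1 and for Dctn4 with Dynll2. At P5, Dctn2 (154 ± 9.82) and Dync1i2 (145 ± 16.6) led with overlapping ranges. Dync1h1 (98.0 ± 8.95) and Dynll1 (80.5 ± 23.5) overlapped next, as did Dynll1 with Dync1li1 (79.8 ± 4.73). Dync1li2 (57.2 ± 4.68) overlapped with Dctn1 (52.7 ± 6.23), and Dctn4 (43.5 ± 2.32) with Dynll2 (39.1 ± 4.64). Dync1i1 was still last (20.4 ± 8.77), with its highest sample at 29.8 RPKM, under the 33.9 RPKM of the lowest Dynll2 sample.

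**Figure D4:**
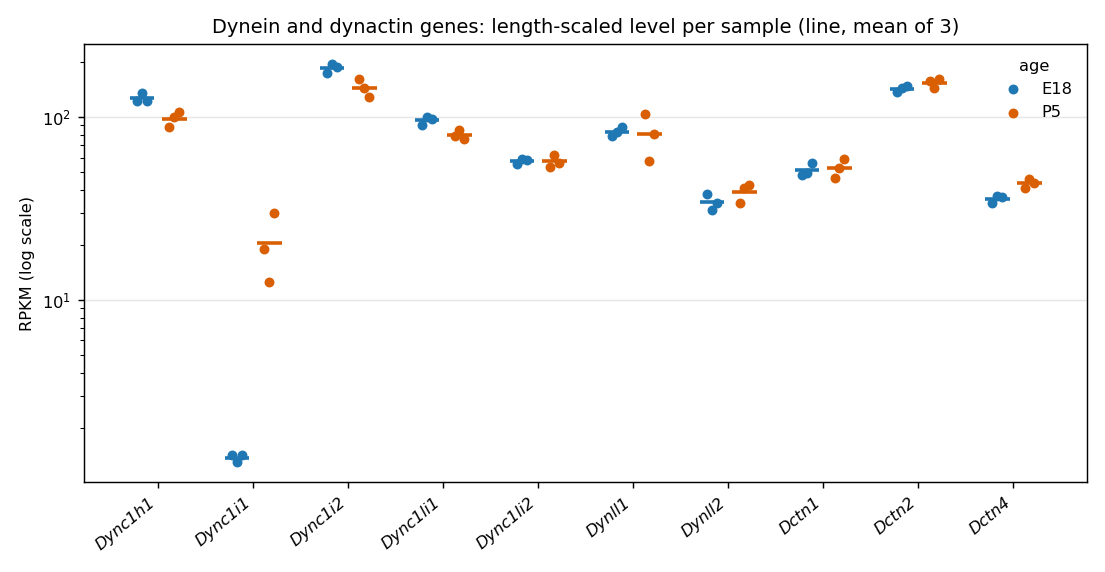
Length-scaled level (RPKM, log axis) of each gene in each sample, with the mean of 3 as a line; blue is E18 and orange P5. Dync1i1 is lowest at both ages, and the other 9 genes lie between 30.9 and 195 RPKM.

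Each subunit was also divided by the heavy chain in the same sample, which needs no library scaling. The ratio of RPKM to Dync1h1 was lower in every E18 sample than in every P5 sample for all 3 dynactin genes. For Dctn4 it was 0.276, 0.271 and 0.296 at E18 and 0.465, 0.458 and 0.413 at P5. For Dctn1 it was 0.391, 0.365 and 0.454 at E18 and 0.527, 0.528 and 0.557 at P5. For Dctn2 it was 1.12, 1.06 and 1.20 at E18 and 1.78, 1.43 and 1.53 at P5. The summed intermediate chains had overlapping ratios of 1.47 ± 0.0547 and 1.70 ± 0.302 at the respective ages (SD, n = 3 each). The summed light intermediate chains (1.21 ± 0.0532 and 1.40 ± 0.138) and the summed LC8 light chains Dynll1 and Dynll2 (0.927 ± 0.0837 and 1.23 ± 0.298) overlapped as well. The size of these ratios depends on the length used for each gene, and a ratio shows unequal change and not which of the genes changed. Dync1h1 itself was higher in every E18 sample than in any P5 sample, while the CPM of Dctn1 and Dctn2 overlapped between the ages. How many of all genes have separate ratios to Dync1h1 was not counted, so nothing is read from the 3 dynactin genes.

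The rest of the dynein pathway was read from a list of 47 other genes, of which 45 had enough counts to be tested in the same fit. This list too was drawn up with earlier results of these data known, so its p-values and counts do not come from an independent choice. By edgeR's quasi-likelihood test with Benjamini-Hochberg adjustment over all genes, 8 of the 45 were higher at E18 and 10 were lower, beside 20.8% and 22.5% of all genes. Over the list, log2 fold changes had a median of -0.07, with 0.0047 over all genes. The number higher varied with the samples fitted. It was 5 without any one E18 replicate or without P5 replicate 9, 3 without P5 replicate 6 and 9 without P5 replicate 8. The number lower was 7 without any one E18 replicate, 8 without P5 replicate 6 or 9 and 13 without P5 replicate 8. Of the 18 genes called, 10 kept their call in every alternative: Dynlt3, Dynlt1f, Capza2, Pafah1b1, Ndel1, Bicd2, Trak2, Hap1, Rilp and Numa1.

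**Figure D5:**
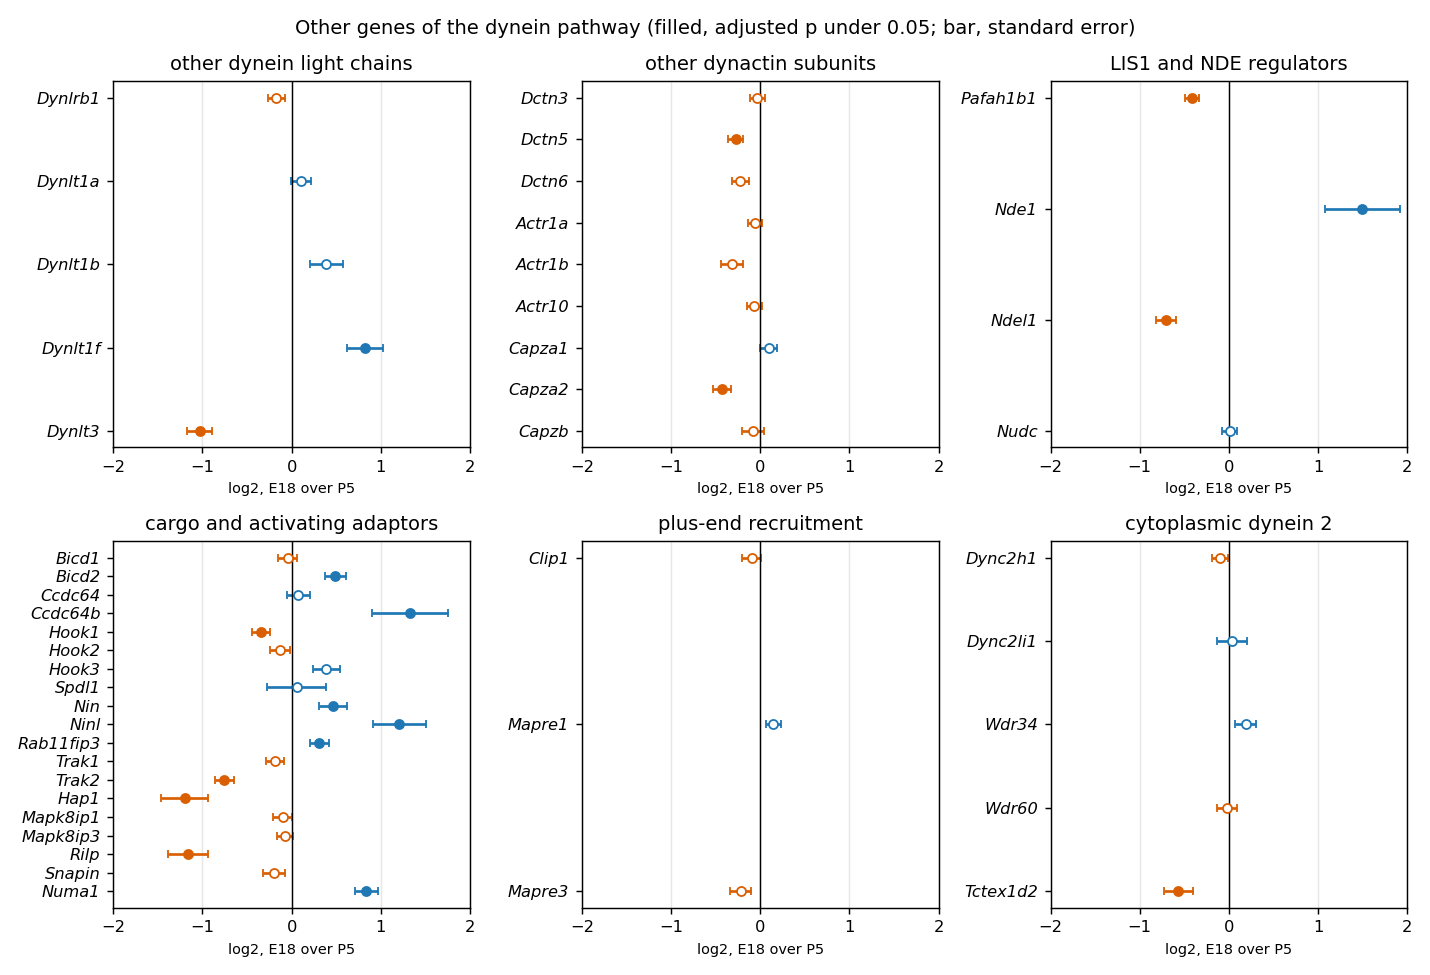
Log2 fold change of E18 over P5 with its standard error for the 45 tested genes of the pathway list, by role; filled points passed an adjusted p of 0.05. The regulators Pafah1b1 and Ndel1 were lower at E18, while Nde1 was higher, and the adaptors moved in both directions.

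LIS1 and the NDE proteins load dynein onto dynactin and hold it on its track. Pafah1b1, the gene of LIS1, had 956, 1029 and 1047 CPM at E18 and 1358, 1306 and 1373 CPM at P5, so that the difference on the log2 scale was -0.41 ± 0.0779 (SE; adjusted p = 0.00372, edgeR quasi-likelihood). Ndel1 had 89.3, 94.5 and 99.8 CPM at E18 and 158, 133 and 172 CPM at P5, a log2 difference of -0.71 ± 0.111 (SE; adjusted p = 0.00166, edgeR). Both were lower in every E18 sample than in any P5 sample. Nde1, the relative of Ndel1 used in dividing progenitors, was 2.82-fold higher at E18 (SE 0.423 on the log2 scale; adjusted p = 0.0207, edgeR). It was uneven, with 7.34, 3.39 and 2.35 CPM in E18 replicates 1, 3 and 4 and 1.84, 1.76 and 1.03 CPM at P5. The summed dividing-cell markers had the same order over the E18 samples. So did the sums of retinal progenitor, endothelial and pericyte, photoreceptor, and Müller glia and astrocyte markers. The part of any of these cells in the Nde1 values was not tested. The call of Nde1 was lost without E18 replicate 1 (log2 fold change 0.90, adjusted p = 0.0608 in edgeR), without P5 replicate 6 (0.0571) and without P5 replicate 9 (0.0698). Exons of Nde1 overlap those of a gene on the opposite strand, as do exons of Dynlt1a, Dctn6, Capza1, Hook1, Hook3, Nin, Numa1, Rab11fip3, Ccdc64b, Snapin, Mapk8ip1 and Mapk8ip3 in the pathway list, and reads there cannot be told apart if the counting ignored strand. Nudc, a chaperone of LIS1, had overlapping ages, with a mean of 78.6 ± 4.95 CPM in E18 and 78.2 ± 2.22 CPM in P5 samples (SD).

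Of the other dynein light chains, Dynlt3 was lower at E18, with 31.1, 28.5 and 30.9 CPM against 63.7, 49.4 and 72.0 CPM at P5. The log2 difference was -1.03 ± 0.139 (SE; adjusted p = 0.000915, edgeR). At P5 Dynlt3 was lowest in replicate 8 and highest in replicate 9. Dync1i1 had this order, and so did Dctn2, Ndel1, Dctn5, Actr1b and other genes of the lists. Dynlt1f was higher at E18 at a low level, 2.75 ± 0.138 against 1.55 ± 0.230 CPM (SD, n = 3 each; log2 fold change 0.82, adjusted p = 0.0123 in edgeR). It belongs to a family of near-identical neighbouring copies with Dynlt1a, Dynlt1b and Dynlt1c, among which reads could be split or lost, and Dynlt1c was listed at 0 reads in every sample. Dynlrb1, a light chain of another family, had 103 ± 9.36 and 116 ± 7.13 CPM and did not pass (adjusted p = 0.192 in edgeR). Its relative Dynlrb2 had at most 6 reads in a sample and was not tested.

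Dynactin was followed over all 12 of its genes in the lists. By edgeR's test 3 of the 12 were lower at E18, Dctn4, Capza2 and Dctn5, beside 22.5% of all genes, and 0 were higher, beside 20.8%. At an unadjusted p under 0.05 in edgeR 5 were lower and 0 higher, beside 4362 and 4197 of all 16449 genes. By DESeq2 4 were lower and 0 higher, beside 3894 and 3740 of all genes. The count includes Dctn4, which was chosen with its value known. Capza2, a subunit of the capping protein at the barbed end that also caps other actin filaments, averaged 226 ± 9.44 CPM in E18 and 304 ± 29.9 CPM in P5 samples (SD; log2 fold change -0.43, adjusted p = 0.00810 in edgeR). Dctn5, a partner of Dctn4 at the pointed end, had 75.4 ± 2.55 and 91.3 ± 5.05 CPM (log2 fold change -0.28, adjusted p = 0.0297 in edgeR), and it missed the threshold in 5 of 6 fits with a sample left out, those without E18 replicate 1, 3 or 4 (adjusted p = 0.0653 to 0.128 in edgeR) and without P5 replicate 6 (0.0515) or 9 (0.0746). Dctn6 and Actr1b also had ages that did not overlap, without passing the threshold (log2 fold changes -0.22 and -0.32, adjusted p = 0.0824 and 0.0643 in edgeR). Actr1b passed with DESeq2, with the likelihood ratio test and without P5 replicate 8, and Dctn6 without P5 replicate 8. Actr1a, the main subunit of the filament, had 387 to 429 CPM at E18 and 413 to 438 CPM at P5, a log2 fold change of -0.06. Dctn3, Actr10, Capza1 and Capzb had log2 fold changes of -0.03, -0.07, 0.09 and -0.08.

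Adaptors choose the cargo and switch the motor on. Of 19 tested, 6 were higher at E18 and 4 were lower, beside 20.8% and 22.5% of all genes. Those lower at E18 were Hap1, the huntingtin-associated protein of vesicle transport (log2 fold change -1.20, adjusted p = 0.00738 in edgeR), Rilp, which links late endosomes to dynein (-1.16, adjusted p = 0.00402), Trak2, an adaptor of mitochondria (-0.75, adjusted p = 0.00122), and Hook1, an adaptor of endosomes (-0.34, adjusted p = 0.0243). Hap1 had 16.7, 13.2 and 15.2 CPM at E18 and 19.9, 45.2 and 38.8 CPM in P5 replicates 6, 8 and 9, so that P5 replicate 6 lay close to the E18 samples. Trak2 was more even, with 79.7 to 82.2 CPM at E18 and 116 to 151 CPM at P5. The Hook1 call was lost without any one of the E18 replicates (adjusted p = 0.0614 to 0.0882 in edgeR).

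Those higher at E18 included Numa1, which anchors dynein at the poles of the mitotic spindle and is also a nuclear protein of cells that do not divide. It had 147, 161 and 148 CPM at E18 and 80.7, 102 and 73.3 CPM at P5 (log2 fold change 0.84, adjusted p = 0.00144 in edgeR). The part of dividing cells in this difference was not tested. Bicd2, an adaptor of Golgi vesicles and the nucleus, had 124, 134 and 131 CPM at E18 and 90.5, 106 and 79.3 CPM at P5 (log2 fold change 0.49, adjusted p = 0.00961 in edgeR). Its relative Bicd1 had a log2 fold change of -0.04. Ninl and Nin, ninein proteins of the centrosome, had log2 fold changes of 1.21 and 0.46 (adjusted p = 0.0121 and 0.0437 in edgeR), and Rab11fip3, an adaptor of recycling endosomes, had 0.31 (adjusted p = 0.0459). The sixth, Ccdc64b (BICDL2), averaged 0.242 ± 0.0604 CPM in E18 and 0.0954 ± 0.0344 CPM in P5 samples (SD; log2 fold change 1.33, adjusted p = 0.0329 in edgeR), and it did not pass with DESeq2 (adjusted p = 0.110). Calls were lost without P5 replicate 6 for Ninl (adjusted p = 0.0591 in edgeR), Nin (0.141), Rab11fip3 (0.132) and Ccdc64b (0.0802), without P5 replicate 9 for Nin (0.117), Rab11fip3 (0.0825) and Ccdc64b (0.105), and without E18 replicates 3 or 4 for Nin (0.128 and 0.0735), Rab11fip3 (0.157 and 0.135) and Ccdc64b (0.0858 and 0.118). Without E18 replicate 1, Nin (0.0821) and Ccdc64b (0.0551) lost theirs. Hook3 did not pass (log2 fold change 0.39, adjusted p = 0.0601 in edgeR), and it passed with DESeq2, upper-quartile scaling, the likelihood ratio test, no filter on low counts or without P5 replicate 8.

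The other motor of the family, cytoplasmic dynein 2, works inside cilia. Of its 5 genes tested, the light chain Tctex1d2 was lower at E18, 7.70 ± 0.627 against 11.4 ± 2.06 CPM (SD, n = 3 each; log2 fold change -0.57, adjusted p = 0.0233 in edgeR). Its call was lost without any one sample except P5 replicate 8 (adjusted p = 0.0527 to 0.0969). The heavy chain Dync2h1 had 94.1 ± 6.42 and 101 ± 6.12 CPM and a log2 fold change of -0.10. The genes that bring dynactin to growing microtubule ends, Clip1, Mapre1 and Mapre3, had log2 fold changes of -0.09, 0.15 and -0.22, and 0 of the 3 passed the edgeR test, also at an unadjusted p under 0.05 and by DESeq2.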

How the data were processed

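RNA from immunopanned RGCs was sequenced as paired 100-base reads. Per the labels the molecule was polyA RNA, while their protocol names a ribosomal depletion kit. The authors used STAR (mm10) and HT-seq (RefSeq annotation) and deposited the raw counts per gene of 6 samples. Deposited normalized counts, a signal scaled by the authors, were not used, and neither were the deposited log2 fold changes, p-values and ranks of the authors' EdgeR comparison. Base calling used CASAVA 1.8.2 per the labels. The strand setting is not given in the sources used here. The column taken as E18 replicate 1 carries further numbers in its name. What these stand for, and whether the column is a pool, is not stated.

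Counts passing edgeR's expression filter (16449 of 24060 genes) were TMM-normalized and tested with edgeR 4.0.16 (quasi-likelihood, Benjamini-Hochberg, threshold 0.05) in R 4.3.3. The script was tested on simulated data. Exon lengths and coordinates are from GENCODE M21 (basic set), promoters from RefSeq on GRCm38.p6. Genes named are the members, the pathway list and the 5 nearest profiles of Dync1i1. The members and lists were chosen with earlier results of these data known. Depth was at least 81213639 reads per sample, so for most genes precision is limited by variation among samples rather than by counting error. Alternatives were DESeq2 1.42.0, upper-quartile scaling, other filters, the likelihood ratio test, other gene lengths and leaving out each sample.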

Additional observations from a re-analysis of the deposited data

How the results depend on the processing

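Dync1i1, Dync1h1, Dync1i2, Dync1li1, Dynll2, Dctn2 and Dctn4 kept the sign of their difference in all 11 alternatives, and Dync1li2, Dynll1 and Dctn1 did not (-0.055 to 0.058, -0.17 to 0.26 and -0.15 to 0.040 with single samples left out). With single samples left out, the count of the 10 genes past the threshold was 0 to 3 as higher at E18 and 1 to 2 as lower, that of the pathway list was 3 to 9 and 7 to 13. That of all genes was 2137 to 4135 and 2438 to 4661, lowest without E18 replicate 3 and highest without P5 replicate 8. Among pathway genes, none of them called, the log2 fold changes whose sign turned ranged then from -0.14 to 0.0073 for Bicd1, -0.18 to 0.024 for Capzb, -0.028 to 0.19 for Ccdc64, -0.072 to 0.015 for Dctn3, -0.15 to 0.19 for Dync2li1, -0.028 to 0.061 for Nudc, -0.40 to 0.30 for Spdl1, -0.097 to 0.030 for Wdr60. With at least 1 CPM in 3 samples that of Nudc was -0.0014. Coding lengths gave Dync1li1 shares of 46.8% at E18 and 42.5% at P5 and a Dynll1 share of 66.3% at E18. As ratios to Dync1h1, coding lengths gave 2.11 (E18) and 2.44 (P5) for intermediate chains, 2.60 and 3.10 for light intermediate chains, 7.97 and 10.7 for LC8, 0.510 and 0.678 for Dctn1, 1.62 and 2.27 for Dctn2, and 1.00 and 1.59 for Dctn4. Longest transcripts gave E18 ratios of 1.58 for intermediate chains and 1.01 for LC8, 0.467 and 0.621 (P5) for Dctn1, and 0.387 and 0.614 for Dctn4. These follow from the lengths divided by. No paired analysis was run, because the labels name no litter or batch that would link an E18 sample to a P5 sample. Depth limits only rare genes such as Ccdc64b, with 6 to 28 reads.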
